A study of Mus musculus with 32 samples.

Results

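Border macrophages of the mouse median eminence (ME) were examined in a droplet-based single-cell RNA sequencing dataset in which transcripts were counted by unique molecular identifiers (UMIs). A cell was taken as a border macrophage when it held at least 3 UMIs of C1qc and when its summed UMIs of Mrc1, Pf4, F13a1, Ms4a7 and Cd163 were at least 2 and exceeded its sum of P2ry12, Cx3cr1 and Gpr34. The rule was met by 109 of 5982 cells, or 1.82% (exact Clopper-Pearson 95% interval 1.5 to 2.19%). These measured values chose the cells, so the levels of the 9 rule genes are given as a description only. The ME tissue came from male C57B/L6 mice aged 40 to 47 days, of which 5 were fasted overnight for 16 h and 5 were fasted in the same way and then refed normal chow for 1 h. Tissue of the 5 mice of each condition was combined, papain was used for dissociation, and each pool of cells was loaded on 2 of the 4 libraries. Cell barcodes carry a number from 1 to 4 that the labels do not tie to a library or condition, so fasted and refed cells could not be told apart and every value covers both. The matrix was therefore handled as 1 sample with no replicate and no test, and a fold difference below is a difference between 2 sets of cells in these libraries.

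Border-associated macrophages are the resident macrophages of the meninges, the perivascular spaces and the choroid plexus, while microglia occupy the parenchyma. Both depend on signalling through the receptor encoded by Csf1r, and both make the complement component C1q. Border macrophages are known for scavenger receptors, for uptake of material from blood and cerebrospinal fluid and, in a portion of the cells, for presentation of antigen on MHC class II. The ME lies outside the blood-brain barrier and is covered by pia, so vascular and meningeal tissue was part of what was dissociated.

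The 5 genes that chose the cells encode a mannose receptor (Mrc1), the chemokine platelet factor 4 (Pf4), the A subunit of coagulation factor XIII (F13a1), a tetraspan membrane protein (Ms4a7) and the haemoglobin-haptoglobin receptor (Cd163). Their sum ran from 3 to 43 UMIs per cell with a median of 15, and 105 of the 109 cells held at least 5. All 5 genes were detected in 24 cells, at least 3 in 84 cells and 1 alone in 8 cells. Pf4 was present at 1937 counts per 1000000 UMIs (CPM; exact Poisson 95% interval 1794 to 2088), with 2064, 1626, 1769 and 2583 CPM in barcode numbers 1 to 4. Ms4a7 reached 1955, 1505, 2233 and 1942 CPM, Mrc1 949.9, 715, 842 and 913 CPM, F13a1 384, 372, 439 and 466 CPM, and Cd163 256, 186, 183 and 233 CPM in the same order. Each of the 5 genes thus stayed within a 2-fold range over the 4 barcode numbers.

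The threshold cut through few cells. No border macrophage had a marker sum of 2, 4 had a sum of 3 or 4, none had exactly 3 UMIs of C1qc, and the lowest C1qc value was 4. Just outside the rule lay 1 cell with 4 UMIs of each marker set and 1 cell with a border sum of 1 against 0. Near it also lay 1 cell with a border sum 1 below the microglial sum, and 3 cells with 1 or 2 UMIs of C1qc. Sums were equal too in 4 cells with 0 UMIs of both marker sets and in 1 cell with 1 UMI of each. Microglial genes were nevertheless present in most border macrophages. Their sum had a median of 3 UMIs and a maximum of 12, and only 8 cells had none. Cx3cr1, the fractalkine receptor, was found in 75.2% of the border macrophages and P2ry12, a purinergic receptor of microglia, in 27.5%. Microglia, defined by at least 3 UMIs of C1qc and a P2ry12, Cx3cr1 and Gpr34 sum of at least 2 UMIs that exceeded the border sum, numbered 412 and had a median microglial sum of 19. A further 11 cells with at least 3 UMIs of C1qc fell in neither set.

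**Figure D1:**
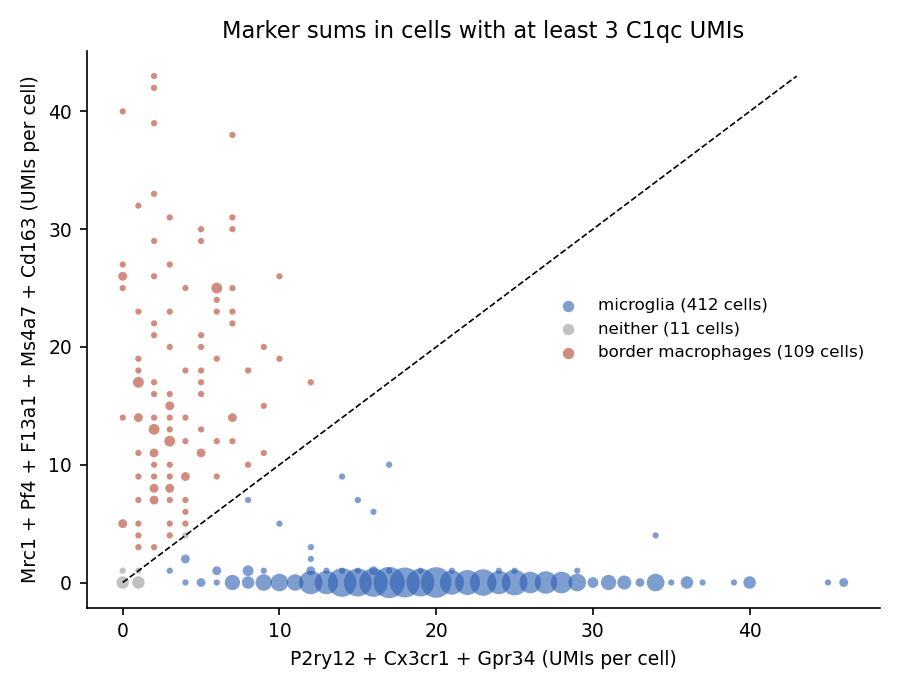
Summed UMIs per cell of the 5 border macrophage genes (vertical axis) against the 3 microglial genes (horizontal axis) in cells with at least 3 UMIs of C1qc; point area grows with the number of cells, and the dashed line marks equal sums. Border macrophages (red, 109 cells) lie above the line with a median border sum of 15, and microglia (blue, 412 cells) lie below it, most of them with a border sum of 0.

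Border macrophages made up 20.5% (17.1 to 24.2%) of the 532 cells with at least 3 UMIs of C1qc. They numbered 37, 33, 23 and 16 in barcode numbers 1 to 4, or 2.25%, 2.21%, 1.69% and 1.08% of the cells there, and the exact intervals of these shares overlapped. The border macrophages held 350551 UMIs in all, with a median of 2927 per cell (1687 to 8782), and microglia held 1405587 with a median of 3120. All 4 barcode numbers together held 29288898 UMIs, between 6508038 and 7806887 each. Mitochondrial UMIs reached at most 4.57% in a border macrophage, and no border macrophage was called a doublet by Scrublet, against 7 microglia. Of the cell barcode sequences, 21 occurred in more than 1 barcode number, and 3 of the border macrophages carried such a sequence. All intervals describe counting error alone, and UMIs from the same cell are not independent of each other.

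Genes outside the rule were first compared with those of the 412 microglia, which asks how far the 2 macrophage populations of the ME differ. Of 4518 genes with at least 50 UMIs over both sets, 65 (1.44%) were at least 4-fold higher in border macrophages and 74 (1.64%) at least 4-fold lower, on the scale of log2(CPM + 10). The median log2 ratio over all 4518 genes was -0.16. A gene with few UMIs in 1 set passed the minimum only through the other set. The counts of higher and lower genes, here and in each list, are therefore a description. The direction was the same in all 4 barcode numbers for 59 of the 65 higher genes and 73 of the 74 lower genes. Leaving out the single border macrophage rich in haemoglobin UMIs, described below, left 61 higher and 72 lower genes. The 4 haemoglobin genes were no longer among the higher ones.

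The label was set beside a list that was chosen with earlier results of these data known, so it is no independent check. The list held 20 genes known from border macrophages that the rule did not use. Of the 13 of these that passed the UMI minimum, 10 were at least 4-fold higher than in microglia and none at least 4-fold lower, with a median log2 ratio of 3.57. A gene with few UMIs in microglia passes this minimum only through the border macrophages, so the count is a description. Over all genes compared, 1.44% were at least 4-fold higher. Dab2, an endocytic adaptor protein, stood at 810.2 CPM (719 to 910.1) against 14.9 CPM, a ratio of 54.2 (34.8 to 89.0). Its levels were 795, 855, 708 and 913 CPM in border macrophages of barcode numbers 1 to 4 and 22.2, 8.26, 23.1 and 7.89 CPM in microglia, so the 2 sets did not overlap. The scavenger receptor Stab1 was higher in each barcode number too, at 1105, 799, 964 and 486 CPM against 131, 90.8, 73.9 and 122 CPM. Cbr2, a carbonyl reductase, was found in 44 of 109 border macrophages and 2 of 412 microglia, and its level was 228 CPM against 1.42 CPM (ratio 160.4, 43.0 to 1347). Folr2, a folate receptor, was found in 25.7% of border macrophages and 0.971% of microglia.

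The 15 largest ratios included those of Clec4n, Clec4a1, Clec10a and Mgl2, which encode C-type lectins. Clec4n was present at 274 CPM against 2.13 CPM, and Clec4a1 at 257 CPM against 6.40 CPM. Clec10a and Mgl2, both galactose-type lectins, had 59 and 76 UMIs in border macrophages and 0 in microglia, which puts them at least 78.9-fold and 102-fold higher when microglia are given 3 UMIs. Clec12a reached 185 CPM against 7.11 CPM. Igf1, insulin-like growth factor 1, stood at 248 CPM (199 to 306) against 12.1 CPM and was found in 60 of 109 border macrophages and 9 of 412 microglia. Wfdc17 (790.2 against 41.3 CPM) and the galectin gene Lgals1 (542 against 38.4 CPM) also passed 4-fold. Ccn1, a matricellular protein, was at 257 CPM against 0.711 CPM, but 1 cell held 25.6% of its UMIs, and the level without it was 193 CPM. F630028O10Rik (231 against 5.69 CPM) and Ifi203 (217 against 6.40 CPM), the latter of the interferon-inducible p200 family, were also among the 15 largest ratios, as were H2-Eb1, H2-Aa, Ifitm2, Ccl8 and Ccl7, which are described below.

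Of 18 scavenger and endocytic receptor genes listed, 17 were named in the matrix and 8 passed the UMI minimum. Stab1, Dab2 and Clec12a were at least 4-fold higher and none was at least 4-fold lower, against 1.44% and 1.64% of all genes compared. Dab2 and Clec12a passed the minimum only through the border macrophages, so the count is a description. Lyve1, the hyaluronan receptor that marks a portion of border macrophages, had 29 UMIs in border macrophages and 1 in microglia, too few for the minimum. It was found in 17 of 109 border macrophages (15.6%, 9.36 to 23.8%), in 1 of 412 microglia (0.243%) and in 1 of 698 mature oligodendrocytes (0.143%), which gives the level of free RNA in cells that should lack it. Median depths were 2927, 3120 and 6186.5 UMIs, and with each cell thinned to 1000 UMIs the shares were 9.17%, 0.243% and 0%. Lyve1 levels in border macrophages were 54.8, 74.3, 122 and 97.1 CPM in barcode numbers 1 to 4. Cd36, the fatty acid translocase, followed the same pattern with 41 UMIs against 2, and Msr1 with 36 against 7. Timd4, a phosphatidylserine receptor, had 9 UMIs in border macrophages and 0 in microglia, whereas Marco was at 0 UMIs in both. Mertk, a receptor for apoptotic cells, was lower in border macrophages, at 45.6 CPM against 118 CPM.

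**Figure D2:**
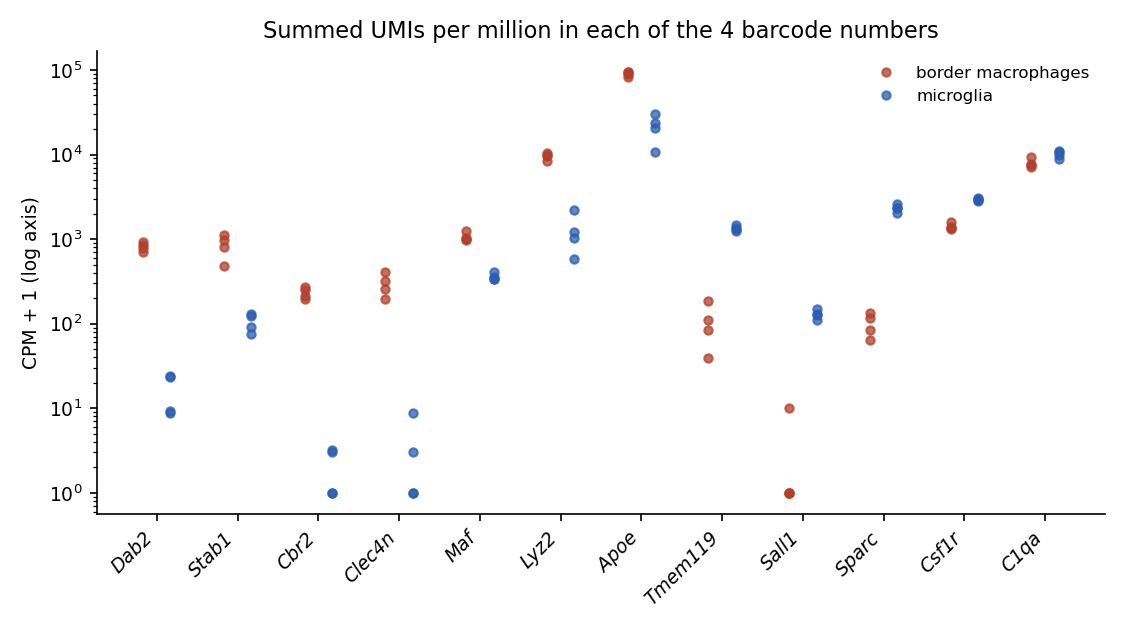
CPM plus 1 (log axis) of 12 genes in border macrophages (red) and microglia (blue), 1 point per barcode number. For Dab2, Stab1, Cbr2, Clec4n, Maf, Lyz2 and Apoe the 4 red points lie above the 4 blue points, and for Tmem119, Sall1, Sparc and Csf1r they lie below.

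Microglial genes outside the rule, also chosen with earlier results of these data known, gave the reverse picture. All 14 listed genes passed the minimum, 11 were at least 4-fold lower in border macrophages and none was at least 4-fold higher, with a median log2 ratio of -2.63. Over all genes compared, 1.64% were at least 4-fold lower. A gene with few UMIs in border macrophages passed the minimum only through microglia, so the count is a description. Tmem119, a microglial membrane protein, was found in 25.7% of border macrophages and 95.1% of microglia, at 183, 83.6, 110 and 38.8 CPM against 1363, 1319, 1242 and 1452 CPM in barcode numbers 1 to 4. Sall1, a transcription factor of microglia, had 1 UMI in all 109 border macrophages and 179 UMIs in microglia, a ratio of 0.0224 (0.000564 to 0.126). The fructose transporter Slc2a5 likewise had 1 UMI against 330. Selplg (111 against 2760 CPM), Sparc (94.1 against 2272 CPM), Siglech (68.5 against 660.2 CPM) and the protease inhibitor gene Cst3 (10483 against 56470 CPM) were all at least 4-fold lower. Fcrls was the exception, at 1155 CPM (1045 to 1274) against 1320 CPM, and Trem2 and Ctss lay between these extremes with log2 ratios of -1.87 and -1.63.

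Further genes with the largest ratios in the same direction were Ecscr (1 UMI against 383), the immune checkpoint receptor Lag3 (7 against 851), Serpine2 (14 against 1109), the sialyltransferase gene St3gal5 (3 against 387), Cd34 (2 against 260), Spint1 (1 against 187), the actin-bundling protein gene Fscn1 (11 against 599), Il1a (1 against 153) and Nav3 (0 against 112). The tetraspanin Cd9 was at 114 CPM against 1410.1 CPM. Itgam, which encodes CD11b, was also lower, at 51.3 CPM (30.4 to 81.2) against 329 CPM. It was the only 1 of 14 genes shared by myeloid cells that passed 4-fold, and the median log2 ratio of the 14 was -0.35. Over all genes compared, 1.64% were at least 4-fold lower. Csf1r stood at 1429 CPM against 2919 CPM, Ptprc (CD45) at 194 CPM against 201 CPM, and Adgre1 (F4/80) at 439 CPM against 226 CPM. The last was higher in border macrophages in all 4 barcode numbers.

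**Figure D3:**
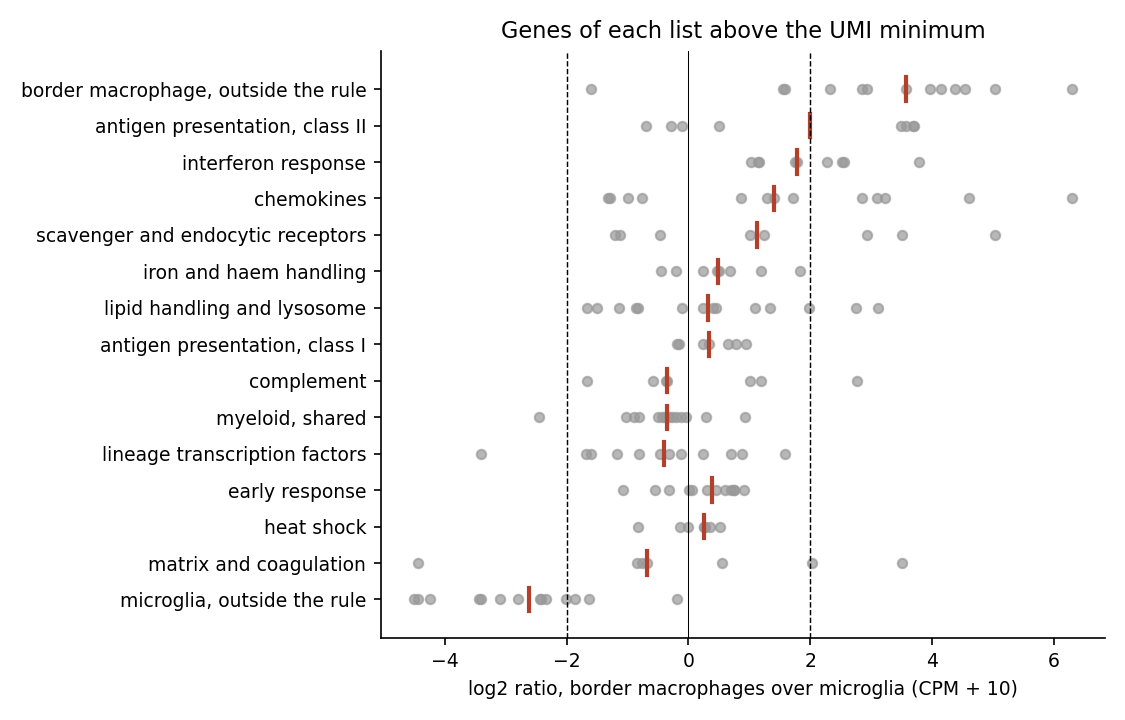
Log2 ratio of border macrophages over microglia (CPM + 10, horizontal axis) for the genes of 15 lists that passed the minimum of 50 UMIs; each grey point is a gene, red bars are list medians and dashed lines mark 4-fold. Border macrophage genes outside the rule have a median of 3.57 and microglial genes outside the rule a median of -2.63, while class I, heat shock and early response genes all lie between the dashed lines.

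Transcription factors differed in a gene-specific manner. Of 18 listed, 12 passed the minimum and only Sall1 passed 4-fold, where 1.44% of all genes were higher and 1.64% lower. Maf was 3.06-fold higher in border macrophages (2.67 to 3.50), at 1260.5, 1003, 988 and 1029.5 CPM against 335, 355, 337 and 402 CPM in barcode numbers 1 to 4. Spi1 (PU.1), which specifies the myeloid lineage, was at 397 CPM against 498 CPM, and Irf8 at 399 CPM against 706 CPM. Runx1 was at 179.7 CPM against 107 CPM, and Bhlhe41 at 51.3 CPM against 188 CPM.

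Lysosomal and lipid genes were split between the 2 sets. Lyz2, which encodes lysozyme, was 6.76-fold higher in border macrophages (6.40 to 7.15) and was found in all 109 of them and in 66.7% of microglia. Its level was 9609, 9811, 8285 and 10508 CPM against 1201, 2186, 1034 and 584 CPM in barcode numbers 1 to 4. Apoe, the apolipoprotein of brain lipid transport, took 91296 CPM of border macrophage UMIs and 23087 CPM of those of microglia, a ratio of 3.95 (3.89 to 4.02). Pltp, a phospholipid transfer protein, was at 262 CPM against 21.3 CPM. Abca1, a cholesterol exporter, was at 259.6 CPM against 96.8 CPM, and the protease gene Ctsc at 1404 CPM against 653 CPM. By contrast, Ctsd (2339 against 7468 CPM), Ctsl (294 against 848 CPM) and Lgmn (2430.5 against 5381 CPM) were lower. Of 18 listed genes, 14 passed the minimum, Lyz2 and Pltp were at least 4-fold higher, and the median log2 ratio was 0.32. Pltp passed the minimum only through the border macrophages. The share at least 4-fold higher over all genes was 1.44%.

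No iron or haem gene outside the rule passed 4-fold among the 8 that could be compared. Over all genes compared, 1.44% were higher and 1.64% lower by 4-fold, so this count of 0 is near the background. The ferritin light chain gene Ftl1 was higher in every barcode number, at 12815, 12338, 12349 and 13150 CPM against 6596, 5440, 4847 and 4119 CPM. Blvrb, a biliverdin reductase, was at 402 CPM (339 to 474) against 106 CPM. The iron exporter gene Slc40a1 was at 208 CPM against 126 CPM and the haem oxygenase gene Hmox1 at 217 CPM against 154 CPM, and each was higher in 3 of 4 barcode numbers. Ceruloplasmin (Cp), a ferroxidase, had 36 UMIs in border macrophages and 2 in microglia.

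Interferon-inducible genes were higher throughout. Of 12 listed, 9 passed the minimum and 4 were at least 4-fold higher, with a median log2 ratio of 1.79. The membrane proteins that restrict viral entry, Ifitm2 and Ifitm3, stood at 699 CPM against 41.3 CPM and 1067 CPM against 176 CPM. Bst2 (tetherin) was at 1160.0, 1003, 927 and 932 CPM against 224, 202, 259 and 122 CPM in barcode numbers 1 to 4. Oasl2 was at 208 CPM against 27.0 CPM and passed the minimum only through the border macrophages. Ifit3 and Isg15 had smaller log2 ratios of 1.15 and 1.03 and were higher in 3 of the 4 barcode numbers. Genes of class I presentation differed less, with B2m at 3674 CPM against 4099 CPM, H2-D1 at 2570.2 against 1626 CPM and H2-K1 at 884 against 453 CPM, and none of 7 passed 4-fold. The same held for early response genes (0 of 12, median log2 ratio 0.38) and heat shock genes (0 of 8, 0.26), which dissociation can change. Over all genes 1.44% were higher and 1.64% lower by 4-fold, so a count of 0 in lists of this size is near the background.

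Ccl8, Ccl7 and Ccl2, chemokines of 1 cluster on chromosome 11, were higher in border macrophages, in 18.3%, 21.1% and 25.7% of the cells. Of 18 listed chemokines, 13 passed the minimum and Ccl8, Ccl7, Ccl2, Cxcl2 and Ccl24 were at least 4-fold higher, against 1.44% of all genes compared. None of these chemokines had enough UMIs in microglia to pass the minimum without the border macrophages, so the count is a description. Ccl8 (chr11:82115185-82116799, GRCm38) had 273 UMIs in border macrophages and 0 in microglia, at least 365-fold higher with microglia given 3 UMIs. In border macrophages 1 cell held 29.3% of its UMIs, without which the level was 561 CPM. Its levels were 1005, 260.1, 268 and 2195 CPM in barcode numbers 1 to 4. Ccl7 (chr11:82045712-82047525) had 82 UMIs against 0, with 612, 46.5, 73.2 and 77.7 CPM, and 161 CPM overall without the cell that held most. Ccl2 (chr11:82035571-82037453) was at 658, 111, 36.6 and 330.2 CPM against 8.87, 28.9, 27.7 and 31.6 CPM. Ccl12, of the same cluster, was found in 50.5% of border macrophages and 35.7% of microglia. Its levels were 1114, 1366, 537 and 2544 CPM against 530, 508, 577 and 434 CPM, so it was lower than in microglia in barcode number 3 and higher in numbers 1, 2 and 4. For Cxcl2, 1 cell held 89.1% of the 46 UMIs, and without that cell the level was 14.4 CPM against 6.40 CPM in microglia. Ccl9 and Ccl6 were lower, at 108 against 226 CPM and 165 against 288 CPM.

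Among complement genes, C1qa (7996 against 10389 CPM) and C1qb (6641 against 9945 CPM) were present in every cell of both sets. C4b, a component of the classical pathway, was the only listed complement gene that passed 4-fold, at 248 CPM against 27.7 CPM, and the anaphylatoxin receptors C3ar1 and C5ar1 were 2.05-fold and 2.35-fold higher. Over all genes compared, 1.44% were higher and 1.64% lower by 4-fold. C4b passed the minimum only through the border macrophages. Of 20 cytokine and growth factor genes, 8 passed the minimum, with Igf1 at least 4-fold higher and Il1a at least 4-fold lower. Igf1 and Il1a each passed the minimum only through the set where it was higher. Tgfb1 was at 265 CPM against 415 CPM. Il6 was at 0 UMIs, which allows up to 8.56 CPM. Hormone and nutrient receptors were sparse. Nr3c1, the glucocorticoid receptor, was at 106 CPM against 111 CPM, while Glp1r, Ghsr, Mc1r, Adora2a, Ffar4 and Thrb had no UMI in a border macrophage.

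Against the 5450 cells with under 3 UMIs of C1qc, 431 of 13762 genes (3.13%) were at least 4-fold higher in border macrophages. The 10 largest log2 ratios belonged to Lyz2 (7.90), C1qa (7.34), C1qb (7.03), Fcer1g (6.88), Ccl12 (6.78), Cd74 (6.58), Tyrobp (6.53), Csf1r (6.27), Fcrls (6.24) and Ccl8 (6.23). Fcer1g and Tyrobp encode signalling adaptors of myeloid receptors, and both were detected in all 109 border macrophages. Of other immune cells, the 5 T and NK cell genes analysed had 0 UMIs and the 6 mast cell genes had 1. The 6 neutrophil genes had 12 UMIs in 10.1% of the border macrophages, 10 of them of Csf3r (28.5 against 134 CPM in microglia), with S100a8 and S100a9 at 0. The 6 B cell genes had 22 UMIs in 16.5% of the cells, 21 of them of Cd79b (59.9 against 54.1 CPM), with Cd79a at 0. The 6 dendritic cell genes had 10 UMIs, of which Flt3, Zbtb46 and Cd209a had 2, 3 and 2 UMIs and Xcr1 had 0. Among 6 monocyte genes, Ly6c2 and S100a4 had 4 UMIs each and Plac8 and Chil3 had 0, whereas Ccr2 was at 151 CPM, in 9 cells. The 5-gene marker lists of 10 other ME cell types held between 4 (oligodendrocyte precursors) and 59 UMIs (mature oligodendrocytes) in all border macrophages together. The 8 neuropeptide genes together were at 183 CPM in border macrophages, 327 CPM in microglia and 2764 CPM in the cells with under 3 UMIs of C1qc.

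**Figure D4:**
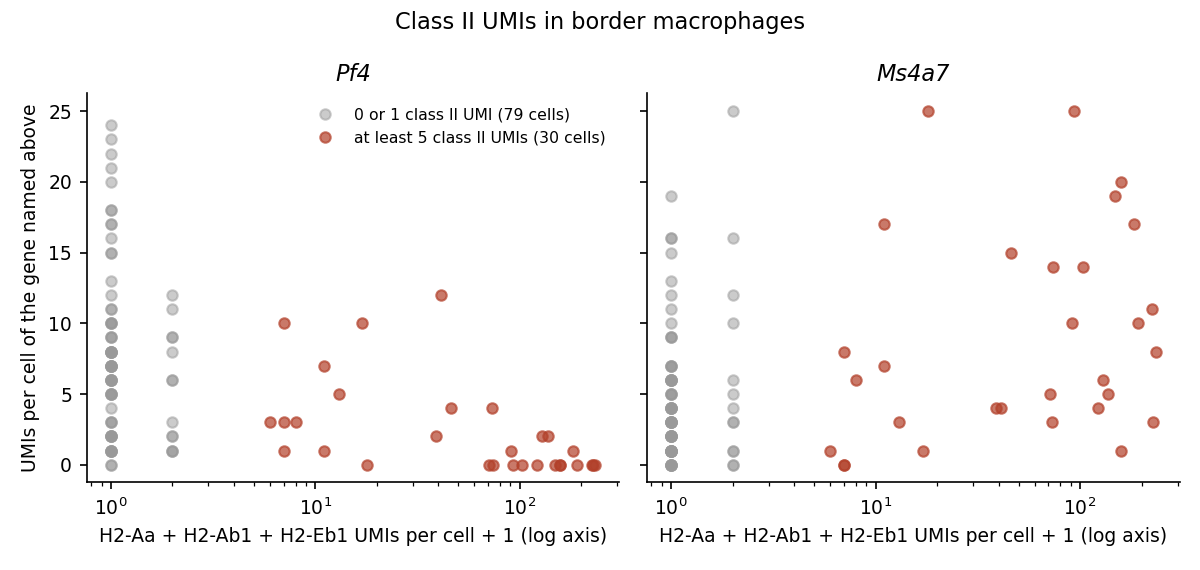
UMIs per cell of Pf4 (left) and Ms4a7 (right) against the summed UMIs of 3 class II genes plus 1 (log axis) in the 109 border macrophages. The 30 cells with at least 5 class II UMIs (red) are separated from the 79 cells with 0 or 1 (grey) by an interval without cells, and their median Pf4 count is 1 UMI against 7. Pf4 and Ms4a7 are genes of the rule, so their counts are a description only.

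MHC class II separated the border macrophages into cells with many and cells with almost no transcripts. Class II molecules present peptides from engulfed material to CD4 T cells, and H2-Aa, H2-Ab1 and H2-Eb1 encode their chains. The 3 genes lie on chromosome 17 (GRCm38 chr17:34282744-34287823, chr17:34257689-34269419 and chr17:34305867-34316674). Summed over them, 66 of the 109 cells held 0 UMIs, 13 held 1, none held 2 to 4, 10 held 5 to 17, none held 18 to 37, and 20 held 38 to 233. At least 1 UMI was found in 43 cells (39.4%, 30.2 to 49.3%), in 13.6% of microglia and in 7.02% of mature oligodendrocytes, or 32.1%, 6.07% and 1.00% after thinning to 1000 UMIs. With at least 5 UMIs, a level chosen after the values were seen, the shares were 30 of 109 border macrophages (27.5%, 19.4 to 36.9%), 8 of 412 microglia (1.94%) and 0 of 698 mature oligodendrocytes, which allows a share of up to 0.430% with 3 cells as the limit of a count of 0 (upper exact limit 0.527%). Carriers numbered 10 of 37, 11 of 33, 5 of 23 and 4 of 16 border macrophages in barcode numbers 1 to 4, and the intervals of these shares overlapped. Over all border macrophages, H2-Aa stood at 2841, 2982, 3441 and 1437 CPM against 237, 297, 180.0 and 11.8 CPM in microglia, with the lowest value of both sets in barcode number 4.

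Of 9 listed genes of class II presentation, 8 passed the minimum and H2-Aa, H2-Ab1, H2-Eb1 and Cd74 were at least 4-fold higher than in microglia. The share at least 4-fold higher over all genes was 1.44%. Cd74, the invariant chain that guides class II through the cell, was at 11884 CPM against 1051 CPM. H2-DMa and H2-DMb1, which load peptide, were close to microglia when averaged over all 109 cells, at 331 against 407 CPM and 314 against 218 CPM. Ciita, the class II transactivator, had 2 UMIs. Over the 109 cells, the share of UMIs of H2-Aa was most alike to those of H2-Ab1, H2-Eb1, Cd74, H2-DMa and Cd52 among 849 genes, with Spearman correlations of 0.89, 0.86, 0.76, 0.61 and 0.53. It was least alike to Ltc4s (-0.65), Pf4 (-0.54) and Mrc1 (-0.48). These are descriptions over cells that share libraries and differ in depth.

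The sequences before the start sites are shown for H2-Aa and H2-Eb1, because both genes were carried by the same cells and both sequences hold the same pair of short motifs in the same order. The promoter of H2-Ab1 was not analysed here. They are from RefSeq (GRCm38.p6), 5′ to 3′ on the strand of the gene, H2-Aa at chr17:34287847-34287927 on the minus strand and H2-Eb1 at chr17:34305753-34305832 on the plus strand. Capitals mark CTNGNAAC and GATTGG, motifs that were chosen after these sequences had been read and that do not overlap each other.
H2-Aa: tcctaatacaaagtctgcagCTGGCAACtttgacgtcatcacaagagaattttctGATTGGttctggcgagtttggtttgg
H2-Eb1: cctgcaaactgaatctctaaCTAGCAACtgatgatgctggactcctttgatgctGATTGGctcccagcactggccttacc
The motifs are 27 bases apart in H2-Aa and 26 bases apart in H2-Eb1. Searched on both strands over 250 bases before each start, the pair in this order with 10 to 40 bases between was found in 40 of 32851 promoters (0.122%), among them those of H2-DMb1 and H2-Ob. Alone, CTNGNAAC was found in 10.9% and GATTGG in 14.6% of the promoters. The pair was absent from the H2-DMa promoters in the table. A match is a description of letters and says nothing of binding.

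Carriers of class II differed from the other border macrophages in further genes. With the haemoglobin-rich cell left out, 30 carriers were set beside 78 cells with 0 or 1 class II UMI at a pseudocount of 50 CPM. Of 921 genes with at least 50 UMIs, 3 (0.326%) were at least 4-fold higher in carriers and 5 (0.543%) at least 4-fold lower, the 3 genes that define the carriers being left out. The lower genes include F13a1, a gene of the rule, so 4 of them lie outside the rule. The higher genes were Cd74 (36346 against 615 CPM), H2-DMb1 (786 against 99.5 CPM) and H2-DMa (813 against 113 CPM). The lower genes were Ltc4s, the leukotriene C4 synthase gene (163 against 853 CPM), Cbr2 (36.1 against 329 CPM), F13a1 (72.3 against 580.0 CPM, a description only), Slc40a1 (9.03 against 312 CPM) and Ccl7 (9.03 against 351 CPM). Slc40a1 and Ccl7 had 1 UMI each in the carriers, with ratios of others over carriers of 34.5 (6.0 to 1381) and 38.8 (6.77 to 1552). All the lower genes passed the minimum only through the other cells, and H2-DMa and H2-DMb1 passed it only through the carriers. The counts of higher and lower genes are therefore a description. For Ccl7, 1 cell held 26 UMIs, and the intervals of the ratios do not cover such differences between cells.

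The 5 marker genes of the rule were not carried alike by the 2 sets of cells. These genes chose the cells, so their levels are a description only. A cell with little Pf4 met the rule only through the other marker genes, such as Ms4a7. Pf4 was at 641 CPM (501 to 809) in carriers against 2584 CPM, and it was found in 17 of 30 carriers and 76 of the 78 others. Mrc1 was at 397 against 1069 CPM and Cd163 at 72.3 against 290.0 CPM. Ms4a7 was higher in carriers, at 2403 CPM (2122 to 2709) against 1675 CPM. The border sum itself had a median of 13 UMIs in carriers and 17 in the others, and the microglial sum a median of 3.5 and 3. Within the carriers, the 10 cells with 5 to 17 class II UMIs had Pf4 in 9 cells, and the 20 cells with at least 38 had it in 8 cells, while Ms4a7 was in 8 of 10 and 20 of 20. Lyve1 was found in 1 of 30 carriers and 16 of 79 others.

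**Figure D5:**
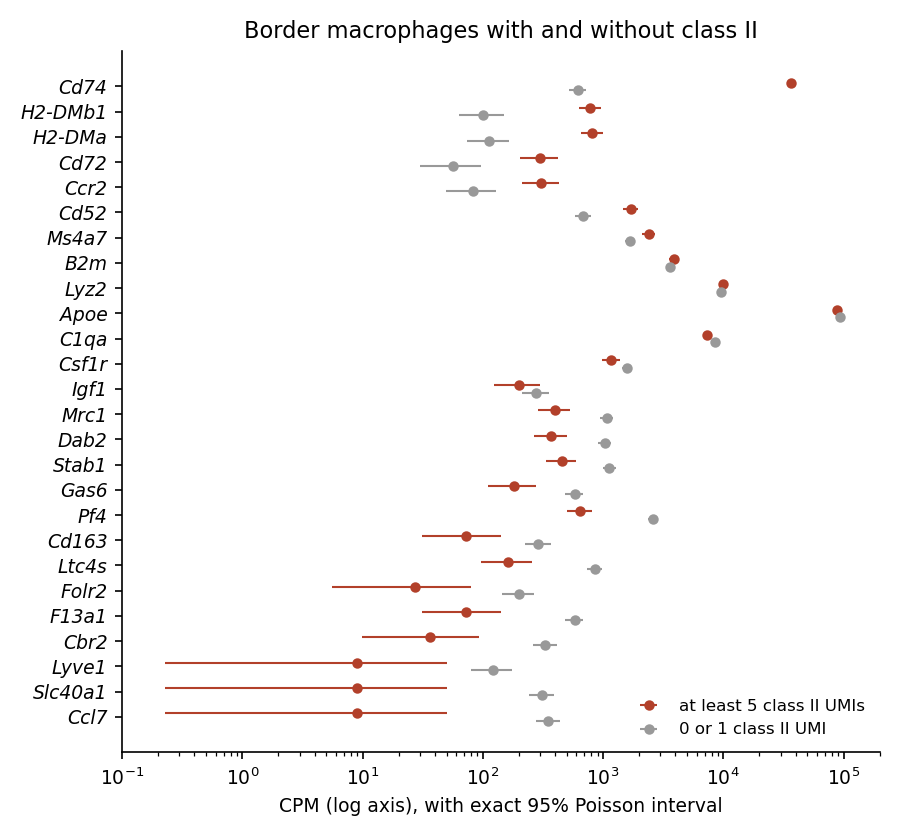
CPM (log axis) of 26 genes in border macrophages with at least 5 class II UMIs (red, 30 cells) and with 0 or 1 (grey, 78 cells), with exact Poisson 95% intervals. Cd74, H2-DMa and H2-DMb1 are to the right in carriers, Pf4, F13a1, Cbr2 and Lyve1 are to the left, and Apoe, Lyz2 and B2m nearly coincide. Pf4, F13a1, Mrc1, Cd163 and Ms4a7 are genes of the rule, so their levels are a description only.

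None of the 5 scavenger and endocytic receptor genes outside the rule that passed the minimum differed by 4-fold between carriers and the other cells. Over all 921 genes, 0.326% were higher and 0.543% lower by 4-fold, so a count of 0 among 5 is near the background. Stab1 was at 452 against 1125 CPM and Dab2 at 370.3 against 1030.1 CPM, whereas Clec12a was at 316 against 121 CPM and Axl at 199 against 126 CPM. The following genes also stayed under 4-fold. Gas6, the ligand of the TAM receptors, was at 181 against 580.0 CPM. The chemokine receptor gene Ccr2 was at 307 CPM (213 to 429) in carriers against 82.2 CPM and was found in 6 of 30 carriers and 3 of the other cells. Cd72 was at 298 against 56.3 CPM and Cd52 at 1698 against 684 CPM. Levels were closer for Apoe (88624 against 93775 CPM), Lyz2 (9890.3 against 9496 CPM), B2m (3893 against 3614 CPM) and C1qa (7325 against 8474 CPM). Median depth was 3480 UMIs in carriers and 2647 UMIs in the others, and its part in the differences was not tested.

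Genes that varied most between border macrophages, relative to the variance that sampling at each cell's depth gives, were ranked over 850 genes with a mean of at least 0.5 UMI per cell. The median ratio of observed to expected variance was 1.22. The 4 haemoglobin genes led, and 1 cell held 5217 of the 5220 haemoglobin UMIs, which were 59.4% of its own 8782 UMIs. That cell also held 23 border marker UMIs and 26 of C1qc. Cd74 (ratio 157), H2-Ab1 (46.5) and H2-Aa (40.6) followed, then Apoe (39.3), Ccl8 (38.6), H2-Eb1 (33.2), Actb (33.0), Ccl4 (28.5), Malat1 (23.8), Ccl12 (15.9) and Fos (11.9). Ccl4 was found in 12.8% of the cells, and 1 cell held 30.1% of its UMIs, without which its level was 330.0 CPM. The cell cycle genes totalled 75 UMIs, of which 56 were in 1 cell with 7 UMIs of Mki67 and 10 of Top2a, and the next highest cell had 3.

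The genes most like Lyve1 over the 109 cells were F13a1, Pf4, Mgl2, Clec10a and Gas6, with Spearman correlations of 0.40, 0.34, 0.31, 0.31 and 0.30, and Mpeg1 (-0.34) was among the least alike. With 29 UMIs of Lyve1 in 17 cells, these correlations are weak and describe sparse counts. Ccl8 and Ccl2 were barely related (0.08), although Ccl2 and Ccl7 were more alike (0.37), and Fos was alike to Jun (0.60) and to Ccl2 (0.39).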

How the data were processed

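The authors deposited UMI counts made with Cell Ranger 2.0 from Chromium Single Cell 3′ version 2 libraries; the submitters' processing notes name mm10. Identifiers were matched to GENCODE (GRCm38) for 27645 of 27998 genes. Clec7a and Trbc2 were not analysed here, and some genes of the lists are not reported here.

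The members and the gene lists were chosen with earlier results of these data known. Counts were summed over cells, scaled to 1000000 (CPM) and compared as log2(CPM + 10) for genes with at least 50 UMIs over both sets, leaving out the rule genes, which stayed in the comparison of class II carriers with other members. Named genes were the listed genes, the 15 largest and 15 smallest ratios against microglia and the 10 largest against cells with under 3 C1qc UMIs, with a UMI in at least 10% of cells of the higher set, the 15 most variable genes, and the 5 most alike to H2-Aa and Lyve1. Genes named in the class II comparison were chosen after their values were seen. Cells with under 3 C1qc UMIs were typed by the marker list with the most UMIs, at least 5 and at least 2 times the next. Shares were recomputed with cells thinned to 1000 UMIs. Scrublet called 50 doublets (0.836%), which were kept. Alternatives changed the rule, the pseudocount, the minimum and the cells left out. The fold calls against microglia and the rule that chose the cells were tried on simulated counts. The other steps were not tested in this way. Python 3.11.15, numpy 2.4.6, scipy 1.17.1, scanpy 1.11.5 and matplotlib 3.10.9 were used.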

Additional observations from a re-analysis of the deposited data

How the results depend on the processing

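The number of border macrophages was between 107 and 112 with a C1qc minimum of 1 UMI or a border marker minimum of 1 or 4 UMIs, and 96 when the border sum had to be at least 2 times the microglial sum. Leaving out 1 barcode number at a time gave 72 to 93 cells, 53 to 62 higher and 67 to 82 lower genes, class II shares of 35.5 to 41.9% and Lyve1 shares of 14.0 to 19.4%. The counts of higher and lower genes depended on the floor: 36 and 24 with a pseudocount of 50 CPM, 122 lower genes with 1 CPM, 104 higher genes with a minimum of 1 UMI, and 29 higher genes after thinning to 1000 UMIs, which leaves fewer genes past the UMI minimum. The class II share was 27.5% with at least 3 UMIs, and also with at least 5 UMIs. The Lyve1 share was 9.17% after thinning and 2.75% with at least 3 UMIs. Kept to the 23 border macrophages with at most 1 microglial UMI, an alternative chosen after seeing the data, the counts were 37 higher and 324 lower genes, of which 29 and 64 were among the 65 and 74 above, and the Lyve1 share was 30.4%. No paired analysis was possible because the columns carry no replicate and no result comes from a test.

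With 350551 UMIs in 109 cells, 1 UMI is 2.85 CPM, so genes under about 8.56 CPM (3 UMIs) cannot be told from 0. Conditions could not be compared, and mice of a condition were pooled. Reads of near-identical genes (Lyz2 and Lyz1, C4b and C4a, Clec10a and Mgl2, Ifitm2 and Ifitm3) may have been divided between them or dropped in counting.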
